A study of Mus musculus with 7 samples.

Results

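AP-1 is a dimeric transcription factor built from a Jun protein and a Fos, Atf or second Jun protein. The 10 genes described here are the Jun genes Jun, Junb and Jund, the Fos genes Fos, Fosl1 and Fosl2, the Atf genes Atf2, Atf7 and Atf3, and Egr1, a zinc finger factor that is induced together with Fos. They were chosen by name, as the rows of the RPKM table (reads per kilobase of gene, scaled to library size) that hold one of these symbols, and all 10 were found among 11642 rows. The choice was made with earlier results of these data known, and it included the pull-down peaks on Atf2. The row of Atf2 also counts Gm27421, and the row of Atf7 also counts Npff and Gm28047, because the authors joined genes that overlap, so the values of Atf7 include any reads from its neighbours.

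C2C12 is a line of mouse myoblasts that leave the cell cycle and fuse into myotubes when serum is lowered. Total RNA was sequenced on day 2 of differentiation from 2 samples treated with scramble siRNA (si-SCR) and 2 treated with siRNA #1 against lnc-SMaRT (si-SMaRT). This is a cytoplasmic long non-coding RNA of muscle that is also named Gm14635. In a second experiment, RNA of C2C12 cells was recovered with biotinylated probes against lnc-SMaRT (set #1) or against LacZ as control, with 1 library each and an input. All groups came from 1 cell line, and a single siRNA was used for the sequenced samples.

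The Fos and Jun genes are immediate early genes: serum, growth factors and stress raise their transcription within minutes through factors already present in the cell. Fos proteins bind DNA only as dimers with a Jun protein, whereas Jun proteins can also pair with each other or with Atf2. JUN is activated by the JNK kinases and ATF2 by JNK and p38. In myoblasts, AP-1 is known for its link with proliferation and for the antagonism between JUN and MyoD, and p38 promotes differentiation. Fos and Jun are shown first by the sequence upstream of their start sites, because these were the genes of each family with the largest ratio of si-SMaRT to si-SCR means among those with a promoter sequence used here. The 250 bases before the start site are given 5′ to 3′ from RefSeq (GRCm38.p6). Capitals mark the motif found, TGACGT in Fos (chr12:85473640-85473889, plus strand) and TGACATCA in Jun (chr4:95052223-95052472, minus strand).
Fos: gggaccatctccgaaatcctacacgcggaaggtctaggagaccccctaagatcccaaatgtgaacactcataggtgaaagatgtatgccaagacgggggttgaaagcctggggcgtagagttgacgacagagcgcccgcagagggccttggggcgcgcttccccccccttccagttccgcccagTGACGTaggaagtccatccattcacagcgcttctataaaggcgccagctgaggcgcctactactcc
Jun: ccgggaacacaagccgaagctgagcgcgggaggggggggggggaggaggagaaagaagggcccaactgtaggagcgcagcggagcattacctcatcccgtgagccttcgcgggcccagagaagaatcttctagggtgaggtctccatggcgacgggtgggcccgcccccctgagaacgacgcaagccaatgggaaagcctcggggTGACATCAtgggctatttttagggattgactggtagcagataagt

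The motifs were searched on both strands in windows of 300 bases, from 250 before to 50 after the start, and 8 of the 10 genes had such a window. TGACGT, the core of the cyclic AMP response element, lay 66 to 61 bases before the start of Fos and was also found in the window of Atf3, against 7.51% of 32851 promoters. TGACATCA, a sequence of the kind that Jun and Atf2 dimers bind, lay 45 to 38 bases before the start of Jun and occurred in 3.62% of promoters. The palindromes TGANTCA and TGACGTCA, the second of which contains TGACGT, were in the windows of 0 of the 8 genes, against 7.81% and 1.79% of all promoters. These matches describe the letters of the windows and do not show binding.

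The depletion was checked first. The RPKM of lnc-SMaRT was 19.1 and 15.9 in si-SCR 1 and 2 and 2.88 and 3.65 in si-SMaRT 1 and 2, which limma put at -2.39 on the log2 scale (standard error, SE, 0.28, adjusted p = 0.000882 by Benjamini-Hochberg). The effective library sizes ranged from 11291255 to 14312935 reads. By the study's read counts, si-SMaRT 1 lost a far larger part of its read pairs to rRNA and tRNA than each other sample. The part of this loss in the differences between samples was not tested. The 2 si-SMaRT samples stood apart from each other in a way that followed the GC content of the genes. The median log2 difference, si-SMaRT 2 minus si-SMaRT 1, was 0.54 among the 2642 tested genes of lowest GC content and -0.68 among the 2642 of highest. The 10 genes ran from 37.0% GC in Atf2 to 67.1% in Jund, and their differences ran along with it, from 0.66 in Atf2 to -1.23 in Junb (62.6% GC) and -1.32 in Jund (Spearman's rho -0.88 over the 10 genes, which share the same 2 libraries). Between the si-SCR samples the 10 genes differed by 0.09 to 0.56. Estimates after each sample's trend with GC content was fitted and subtracted (GC trend removed) are therefore given beside the values as deposited. Part of the trend can remain in them.

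**Figure D1:**
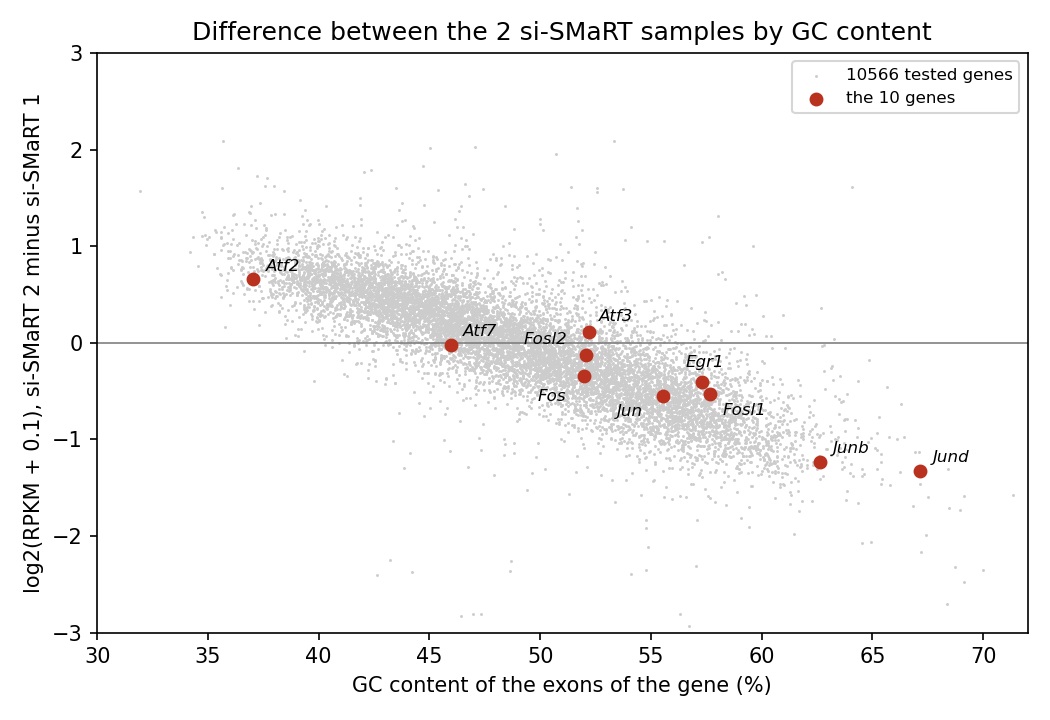
The difference in log2(RPKM + 0.1) between si-SMaRT 2 and si-SMaRT 1 is plotted against the GC content of each gene's exons in percent, with tested genes as grey points, of which 27 lie outside the axes, and the 10 genes in red. Atf2, at 37.0% GC, is the highest of the 10 at 0.66, and Junb and Jund, at 62.6% and 67.1% GC, are the lowest at -1.23 and -1.32.

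The 10 genes did not move as one after depletion of lnc-SMaRT. Fos, Fosl1, Fosl2, Jun and Atf7 were higher in both si-SMaRT samples than in both si-SCR samples, Junb and Atf3 were lower in both, and the groups overlapped for Jund, Egr1 and Atf2. So 7 of the 10 genes had groups that did not overlap, 5 higher and 2 lower, against 40.7% of the 11086 tested genes (20.2% higher and 20.4% lower). In the limma fit over these genes, 0 of the 10 passed an adjusted p of 0.05, where 0.505% of all genes passed (0.18% higher and 0.325% lower). At an unadjusted p under 0.05 there were 4 of the 10 (Fos, Fosl1 and Jun higher, Junb lower), against 9.09% of all genes. With voom on the recovered reads, 0 passed after adjustment (1.01% of all genes) and 5 at an unadjusted p under 0.05, Fosl2 being the fifth (9.74% of all genes). With the GC trend removed, 4 of the 10 passed (Fos, Fosl1 and Jun higher, Junb lower), and 5.95% of all genes did. The median log2 fold change of the 10 genes was 0.34, and 0.27 with the GC trend removed, against 0.02 and 0.01 over all tested genes. With 2 samples against 2, an exact permutation test of a single gene cannot give a two-sided p under 0.333, so the tests below rest on the spread shared across genes by limma. RNA from whole populations of cells does not tell a change in the number of cells of a kind from a change in RNA per cell.

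**Figure D2:**
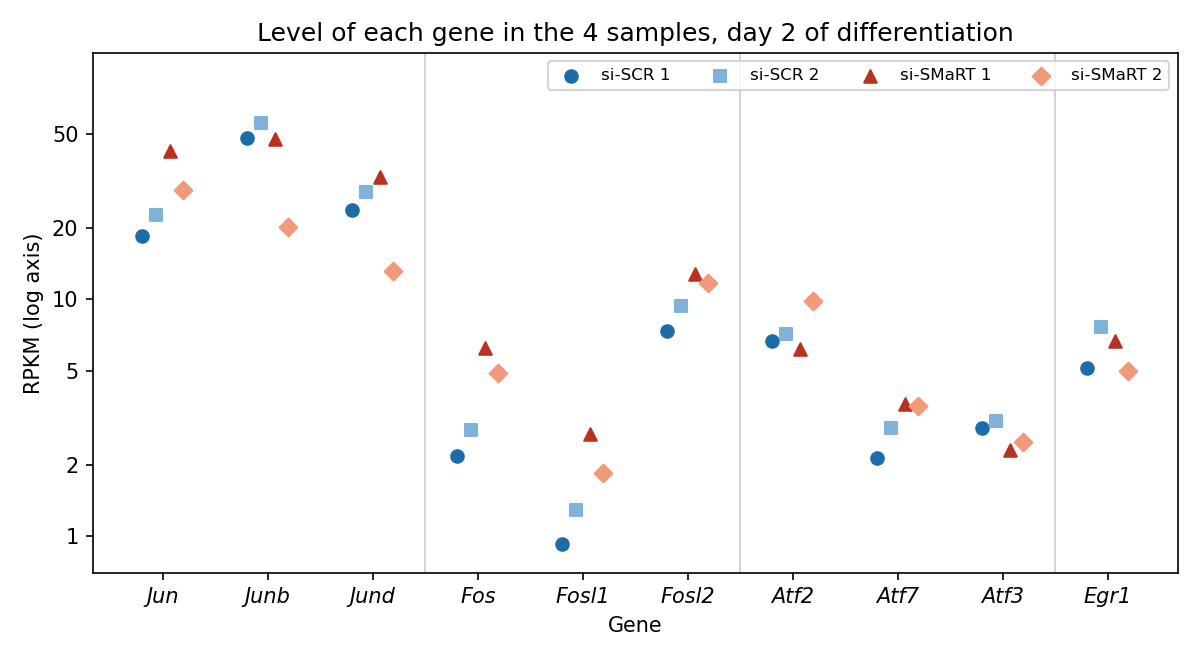
The RPKM of each of the 10 genes is plotted on a log axis for the 4 samples, with blue points for si-SCR and red points for si-SMaRT. The si-SMaRT points of Jun, Fos, Fosl1, Fosl2 and Atf7 lie above both si-SCR points, and si-SMaRT 2 lies far below the other 3 samples for Junb and Jund.

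The Jun genes gave the highest levels of the 10 and split in direction. Jun (chr4:95049034-95052222) encodes the subunit with the strongest transactivation and is itself a target of AP-1. Its RPKM was 18.5 and 22.7 in si-SCR 1 and 2 and 42.3 and 28.9 in si-SMaRT 1 and 2, so both depleted samples were above both controls. Limma estimated a log2 change of 0.77 for Jun (SE 0.28, adjusted p = 0.338), and of 0.82 with the GC trend removed (SE 0.14, adjusted p = 0.00992). Over 16 other settings the fold change of Jun stayed above 0, between 0.50 (without si-SMaRT 1) and 1.04 (without si-SMaRT 2), and it passed in 3, with adjusted p from 3.66e-05 to 1.

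Junb (chr8:84974484-84978718), which dimerizes like Jun but activates weakly and can restrain it, went the other way. The RPKM of Junb was 48.1 and 55.6 in si-SCR and 47.7 and 20.3 in si-SMaRT. The first depleted sample lay barely under the lower control, and the second far under both. The change by limma was -0.73 on the log2 scale (SE 0.34, adjusted p = 0.530), and -0.61 with the GC trend removed (SE 0.15, adjusted p = 0.0401). It was -0.12 without si-SMaRT 2 and -1.35 without si-SMaRT 1, so its size rests on the sample in which genes of high GC content were low against si-SMaRT 1.

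Jund (chr8:70698949-70700616) encodes the subunit that is present in resting cells and is little induced by serum. Its RPKM was 23.8 and 28.3 in si-SCR and 33.0 and 13.1 in si-SMaRT, so the 2 depleted samples lay on either side of both controls. On the log2 scale limma gave -0.32 for Jund (SE 0.35, adjusted p = 0.857), and -0.10 with the GC trend removed. Without si-SMaRT 2 it was 0.35, the opposite direction, and without si-SMaRT 1 it was -0.98.

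Because RPKM is per length, the Jun genes can also be compared as shares of their summed RPKM. Jun made up 20.5% and 21.3% of the sum in si-SCR 1 and 2, and 34.4% and 46.4% in si-SMaRT 1 and 2. The share of Junb was 53.2% and 52.2% in si-SCR and 38.8% and 32.5% in si-SMaRT. Jund held 26.3%, 26.6%, 26.8% and 21.1% in the same order. The ratio of Jun to Junb in RPKM was 0.386 and 0.408 in the controls and 0.887 and 1.43 in the depleted samples. The fold changes of Jun and Junb differed by 1.50 on the log2 scale, and by 1.43 with the GC trend removed, and no test was made of this difference.

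**Figure D3:**
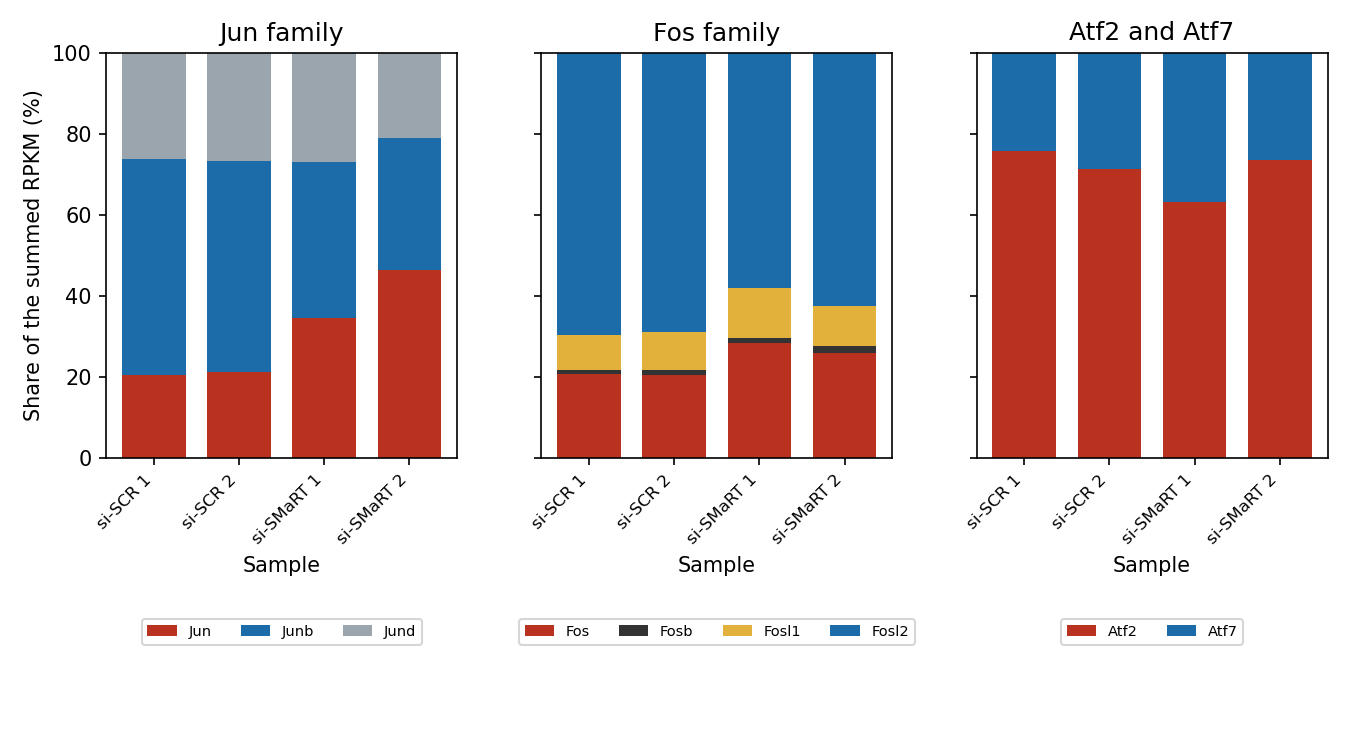
The bars give the share of each gene, in percent, in the summed RPKM of the Jun genes, the Fos genes, and Atf2 with Atf7, in each of the 4 samples. Jun takes 20.5% and 21.3% of the Jun family in si-SCR and 34.4% and 46.4% in si-SMaRT, and Fosl2 is the largest part of the Fos family in each sample.

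Of the Fos genes, Fosl2 was the most abundant per length and Fos had the largest fold change of the 10 genes. Fos (chr12:85473890-85477273), the classical partner of Jun, had an RPKM of 2.18 and 2.80 in si-SCR 1 and 2 and of 6.21 and 4.87 in si-SMaRT 1 and 2, from 65, 93, 165 and 164 reads. Both depleted samples were above both controls, and the ratio of the means was 2.23. Its log2 change by limma was 1.12 (SE 0.29, 95% interval 0.50 to 1.74, adjusted p = 0.123), and 1.15 with the GC trend removed (SE 0.17, adjusted p = 0.00424). Over 15 other settings it lay between 0.90 and 1.30 and passed in 5, with adjusted p from 2.03e-05 to 1.

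Fosl1 (chr19:5447547-5455946) encodes FRA-1, a Fos protein without a transactivation domain of its own that is itself raised by AP-1. Its RPKM was 0.926 and 1.29 in si-SCR and 2.70 and 1.84 in si-SMaRT, again without overlap, although it was the lowest of the 10 genes, with at least 20, 31, 52 and 45 reads. Limma placed the log2 change of Fosl1 at 0.97 (SE 0.33, adjusted p = 0.286), and at 1.04 with the GC trend removed (SE 0.20, adjusted p = 0.0171). Over 15 other settings it lay between 0.63 and 1.23, with adjusted p from 0.00151 to 1.

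Fosl2 (chr5:32135801-32157842) encodes FRA-2, the Fos protein that is found in cells without fresh stimulation. Its RPKM was 7.34 and 9.40 in si-SCR and 12.8 and 11.7 in si-SMaRT, without overlap. The difference by limma was 0.55 on the log2 scale (SE 0.27, adjusted p = 0.570), and 0.59 with the GC trend removed (SE 0.15, adjusted p = 0.0512). Fosb, the remaining Fos gene, was too low to be tested, at an RPKM of 0.0843 and 0.151 in si-SCR and 0.307 and 0.317 in si-SMaRT. The summed RPKM of the 4 Fos genes was 10.5 and 13.6 in si-SCR and 22.0 and 18.8 in si-SMaRT. Within that sum, Fos held 20.7% and 20.5% in si-SCR and 28.2% and 26.0% in si-SMaRT. Fosl2 held 69.7% and 69.0% in si-SCR and 58.1% and 62.5% in si-SMaRT, and the shares were not tested.

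**Figure D4:**
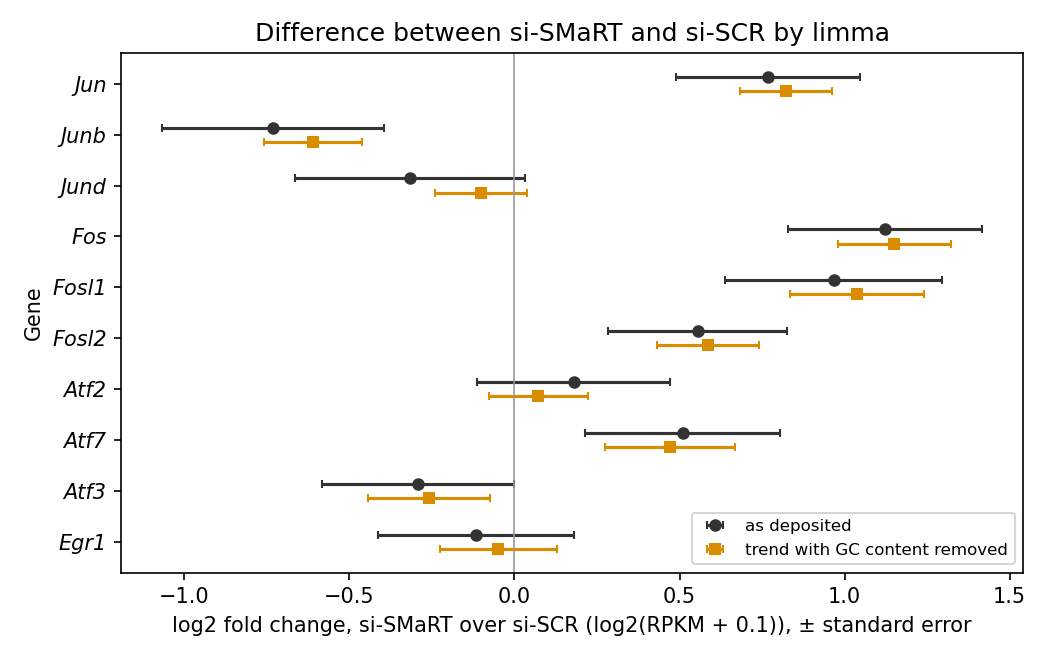
The log2 fold change of si-SMaRT over si-SCR is plotted for each gene with its standard error from limma (n = 2 and 2), for the values as deposited (black) and with the trend with GC content removed (orange). Fos, Fosl1 and Jun lie highest and Junb lowest in both, and the standard errors are smaller with the trend removed.

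Atf2 and Atf7 encode closely related factors that p38 and JNK phosphorylate, and that bind DNA as dimers with each other or with JUN. The RPKM of Atf2 was 6.68 and 7.11 in si-SCR 1 and 2 and 6.20 and 9.85 in si-SMaRT 1 and 2, so one depleted sample was the lowest of the 4 and the other the highest. By limma the groups differed by 0.18 on the log2 scale (SE 0.29, 95% interval -0.44 to 0.80, adjusted p = 0.910), and 0.07 with the GC trend removed. Without si-SMaRT 2 it was -0.15, and without si-SMaRT 1 it was 0.51. Atf2 was the gene of lowest GC content among the 10, and its difference between the si-SMaRT samples was larger than in 90.0% of tested genes.

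The row with Atf7 (chr15:102525946-102625464 for Atf7) had an RPKM of 2.14 and 2.87 in si-SCR and 3.60 and 3.55 in si-SMaRT. The depleted samples were above both controls, and limma gave a log2 change of 0.51 (SE 0.30, adjusted p = 0.651), or 0.47 with the GC trend removed (adjusted p = 0.168). Leaving out si-SCR 1 gave 0.31 for this row, and leaving out si-SCR 2 gave 0.71. Atf2 held 75.7%, 71.3%, 63.3% and 73.5% of the RPKM of the pair in the 4 samples, with overlap between the groups. Atf3 (chr1:191170296-191218039), a stress-induced repressor of the same family, was lower in both depleted samples, at 2.30 and 2.5 against 2.86 and 3.06. Its log2 change was -0.29 by limma (SE 0.29, adjusted p = 0.841), and it stayed below 0 in 15 of 15 other settings without passing. Egr1, which serum induces along with Fos through SRF, had an RPKM of 5.13 and 7.62 in si-SCR and 6.64 and 5.0 in si-SMaRT. The groups overlapped for Egr1, with a log2 change of -0.12 by limma (SE 0.30, adjusted p = 0.946), which turned to 0.17 without si-SCR 2 and to 0.08 without si-SMaRT 2.

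In si-SCR the order of mean RPKM was Junb (51.9), Jund (26.0), Jun (20.6), Fosl2 (8.37), Atf2 (6.90), Egr1 (6.38), Atf3 (2.96), Atf7 (2.51), Fos (2.49) and Fosl1 (1.11). Of neighbours in this order, Atf2 with Egr1, Atf3 with Atf7 and Atf7 with Fos overlapped in their 2 samples. In si-SMaRT the order began with Jun (35.6), Junb (34.0), Jund (23.1) and Fosl2 (12.3), where Jun overlapped Junb and Junb overlapped Jund. Fos stood seventh at 5.54, overlapping Egr1 at 5.82, and was above Atf7 at 3.57.

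The pull-down asked which RNAs are recovered together with lnc-SMaRT. Of the 10 genes, 1 had a peak in the pull-down list, Atf2, and 0 had a peak in the LacZ list. Over all annotated genes, 76 had a lnc-SMaRT peak on an exon. The peaks on Atf2 were part of the choice of what to describe, so their presence is not a result about the 10 genes. Atf2 (chr2:73816509-73892639, minus strand, GRCm38) had 6 of the 345 lnc-SMaRT peaks, each a bin of 200 bases, and none of the 6 overlapped one of the 336 LacZ peaks. Each of the 6 overlapped a different coding exon of transcript Atf2-201, which has 14 exons, of which exons 4 to 14 are coding. Peaks fell on exons 7, 8, 9, 10, 13 and 14, and 597 of the 1200 bases under them were exonic and 603 intronic. Of the exonic bases, all were coding. The 4 peaks with more than 100 exonic bases are shown 5′ to 3′ along the transcript from the GRCm38 genome. Exonic bases are in capitals, so that the coding sequence under each peak can be read. Which bases of a bin were recovered was not examined. They lay at chr2:73846201-73846400 (exon 8), chr2:73845401-73845600 (exon 9), chr2:73823201-73823400 (exon 13) and chr2:73819001-73819200 (exon 14).
Exon 8: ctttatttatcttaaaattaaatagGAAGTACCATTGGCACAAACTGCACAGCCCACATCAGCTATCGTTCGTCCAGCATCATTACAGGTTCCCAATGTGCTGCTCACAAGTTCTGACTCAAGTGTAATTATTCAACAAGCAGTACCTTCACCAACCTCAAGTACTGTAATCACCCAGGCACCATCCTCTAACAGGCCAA
Exon 9: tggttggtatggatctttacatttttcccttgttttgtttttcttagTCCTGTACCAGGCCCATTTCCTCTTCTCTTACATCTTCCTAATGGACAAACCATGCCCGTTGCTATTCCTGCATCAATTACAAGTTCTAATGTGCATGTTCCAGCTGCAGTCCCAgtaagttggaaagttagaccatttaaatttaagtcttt
Exon 13: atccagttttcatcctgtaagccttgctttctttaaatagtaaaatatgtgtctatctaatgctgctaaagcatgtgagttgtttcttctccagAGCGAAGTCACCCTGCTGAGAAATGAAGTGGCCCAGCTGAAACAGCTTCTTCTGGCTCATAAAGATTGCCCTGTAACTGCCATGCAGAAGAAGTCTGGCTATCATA
Exon 14: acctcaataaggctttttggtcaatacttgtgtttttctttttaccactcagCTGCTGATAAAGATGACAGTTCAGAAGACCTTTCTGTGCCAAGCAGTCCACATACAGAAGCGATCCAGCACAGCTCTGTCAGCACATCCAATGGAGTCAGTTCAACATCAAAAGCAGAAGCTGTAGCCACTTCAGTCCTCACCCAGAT

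The p-value given by the authors' peak caller was lowest on exon 8, at 1.18e-05, the 50th lowest of the list. It was 0.000299 on exon 13, 0.000534 on exon 14 and 0.000741 on exon 9. The peaks on exons 7 and 10, with 12 and 41 exonic bases, had a p of 0.00381 and 0.00465, the latter ranking 285th of 345. Exons 8, 9, 13 and 14 thus kept their peak at a p under 0.001, and 4 of the 6 peaks remained. By number of peaks on exons, Atf2 was level with Slc15a4, behind Ttn (200), Vps45 (10) and Mybph (7), and 51 of the 76 genes with such a peak had 1. Ttn and Vps45 also had 126 and 9 LacZ peaks, whereas Mybph, Slc15a4 and Atf2 had 0.

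Each peak was also searched for the longest run complementary to one of the 6 probes of set #1, which could pair with an RNA directly. On exon 9 this was a run of 11 bases, accatgcccgt, which can be read in the sequence above, complementary to probe 5. On the other Atf2 exons it was 6 or 7 bases. Over the 257 lnc-SMaRT peaks of a single bin the median was 7 and the longest 20, the length of a whole probe. A run of 11 or more was held by 4 of them, the exon 9 peak included. Single-bin peaks on lnc-SMaRT itself, the target of the probes, were not left out, and lnc-SMaRT had 4 peaks on its exons. Over the 263 LacZ peaks of a single bin the median was also 7 and the longest 10. There was 1 pull-down library of each kind, so these peaks have no replicate check, and the part of probe pairing in their recovery was not tested. By the study's read counts, only a small part of the mapped reads of both pull-down libraries was left after duplicates and reads with several positions were removed. Far more reads were left in the input.

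**Figure D5:**
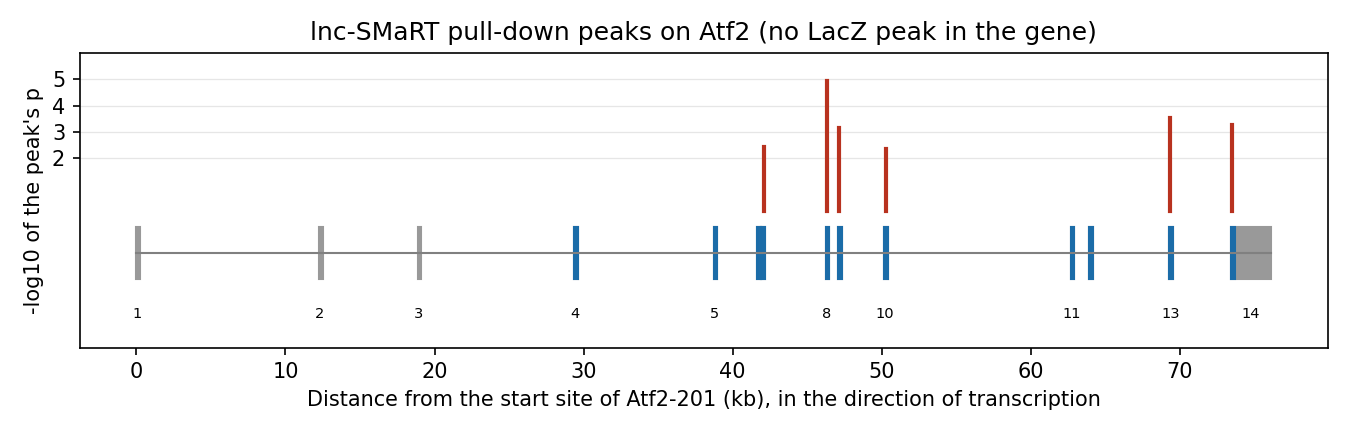
The exons of Atf2-201 are drawn by distance from the start site in kb (blue for coding and grey for non-coding sequence, with a smallest drawn width so that short exons can be seen), and each red bar is a lnc-SMaRT peak whose height is -log10 of the authors' p-value. The 6 peaks stand on coding exons in the second part of the gene, and the gene has no LacZ peak.

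The rest of the pathway was described from lists chosen by function, with earlier results of these data known. Over the 4 lists (20, 43, 30 and 31 tested genes, in the order given below), 1 gene passed as deposited, where 0.505% of all tested genes passed. Among known AP-1 target genes, 20 of 25 were tested, and Ccnd1, the cyclin that drives cells into the cycle, passed. Its RPKM was 3.96 and 3.27 in si-SCR and 9.17 and 9.60 in si-SMaRT, or 1.36 on the log2 scale by limma (SE 0.28, adjusted p = 0.0356). Ccnd1 passed in 11 of 16 other settings, with adjusted p from 8.88e-08 to 1, and did not pass without si-SCR 1 (0.764), without si-SCR 2 (1), without a filter on low values (0.0531), after quantile normalization (0.0619) or with the replicate number as a block (0.0591). The next largest fold changes of the list were 1.31 for the chemokine Ccl2 (adjusted p = 0.0528) and 1.19 for the EGF receptor ligand Areg (adjusted p = 0.177). The smallest were -0.84 for the cytokine Lif, -0.60 for the protease inhibitor Timp1 and -0.31 for Plaur, the urokinase receptor. Without overlap of the groups, 12 of the 20 tested genes of this list were higher and 4 lower, against 20.2% and 20.4% of all tested genes. The median log2 fold change of the list was 0.34. With the GC trend removed, 5 of its genes rose (Ccnd1, Ccl2, Gja1, Areg and Csf1) and 0 fell in the limma test. In that fit 5.95% of all genes passed in either direction. Gja1 and Csf1 are named here after their values were seen.

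Of the other immediate early genes, 43 of 46 were tested, and 0 passed as deposited and 0 with voom. At an unadjusted p under 0.05 (limma) 6 were higher and 1 lower, against 9.09% of all tested genes in either direction. Without overlap of the groups 15 were higher and 4 lower, against 20.2% and 20.4% of all tested genes. The median log2 fold change of the list was 0.21. The largest were 1.22 for the kinase gene Pim1 (adjusted p = 0.0776), 1.02 for the matricellular gene Cyr61 (adjusted p = 0.137) and 0.81 for Myc (adjusted p = 0.294). The lowest were -0.95 for the orphan receptor gene Nr4a1, -0.49 for Ier5l and -0.47 for Gadd45b. With the GC trend removed, Pim1, Myc and Gadd45g rose and Nr4a1 fell in the limma test (adjusted p = 0.00231, 0.00964, 0.0195 and 0.0258), Gadd45g being named after its values were seen. Of all genes 5.95% passed in that fit. Cyr61 has no GC content here and was not part of that fit.

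Over all tested genes, 9.09% had an unadjusted p under 0.05 by limma and 1.01% passed with voom. Of the other bZIP factors, the wider family with the same dimerization domain, 30 of 43 were tested and 0 passed. In this list 1 was lower at an unadjusted p under 0.05 (limma), 1 (Mafa) passed with voom, and the median was 0.10. The largest fold changes were 0.68 for Cebpa, 0.54 for Creb3l2 and 0.49 for Jdp2, a partner and repressor of Jun, and the lowest were -1.57 for Mafa, -0.54 for Atf5 and -0.52 for the stress factor Ddit3. Mafa passed with the GC trend removed (adjusted p = 0.0159 from limma). Among the kinases and upstream factors of AP-1 and Atf2, 31 of 35 were tested and 0 passed, with 2 lower at an unadjusted p under 0.05 (limma) and 0 passing with voom, and the median was -0.01. The largest were 0.38 for Elk3, 0.34 for the JNK scaffold gene Mapk8ip1 and 0.31 for Mkl2. The lowest were -1.31 for Rps6ka1, which encodes a kinase of the ERK pathway, -0.86 for Mapk12, the p38 gamma kinase of muscle, and -0.46 for Map3k11. Rps6ka1 and Mapk12 passed with the GC trend removed (adjusted p = 0.0128 and 0.0149 from limma), where 5.95% of all genes did.

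Markers of the state of the cells are given beside these genes. Of the myotube markers 14 were tested (Mymk and Tmem8c are names of 1 gene). Without overlap 11 were lower and 1 higher, against 20.4% and 20.2% of all tested genes. The summed RPKM of the list was 12066 and 11896 in si-SCR against 8127 and 5680 in si-SMaRT. The median log2 fold change of the myotube markers was -0.69, with -1.27 for Tnnc1, -1.25 for Ckm and -1.10 for Tnni1. As deposited 0 passed, with voom 3 (1.01% of all genes), and with the GC trend removed 5, all lower (5.95% of all genes). At an unadjusted p under 0.05 by limma there were 8 (9.09% of all genes). The highest of the myotube markers were 0.60 for Myh8, 0.26 for Myod1 and -0.31 for Tmem8c. Of 12 markers of undifferentiated and cycling myoblasts 11 were tested and Pax7 was not in the table. Id3, an inhibitor of MyoD, rose from an RPKM of 2.91 and 3.20 to 12.3 and 7.26 (1.60 on the log2 scale, adjusted p = 0.0232 by limma), and did not pass without si-SCR 1 (0.716) or si-SCR 2 (0.345). The other markers named by the rule were Aurkb (0.46), Ccna2 (0.38), Myf5 (-0.0040), Id1 (-0.01) and Id2 (-0.58). In this list 5 were higher and 1 lower without overlap of the groups, against 20.2% and 20.4% of all tested genes. Its median log2 fold change was 0.27. The summed RPKM of this list was 225 and 198 in si-SCR and 212 and 283 in si-SMaRT, with overlap. Of the leukocyte and endothelial markers, 2 were in the table (Cd68 and Itgam), and their summed RPKM was 1.63 and 1.34 in si-SCR and 1.34 and 1.14 in si-SMaRT. The part of the state of differentiation in the levels of the 10 genes was not tested.

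Across the 11085 other tested genes, the profiles most like that of Fos over the 4 samples, by the root mean square difference of centred log2(RPKM + 0.1), were Csf1 (0.0494), Nid1 (0.0732) and Masp1 (0.0738). Those most like Jun were Zbtb34 (0.0315), Mchr1 (0.0349) and Epb4.1l1 (0.0394). Those most like Atf2 were A530054K11Rik (0.0137), Rc3h2 (0.0182) and Atxn3 (0.0186). Atxn3, for example, had an RPKM of 6.42, 7.07, 6.09 and 9.54 in the 4 samples, with the same high value in si-SMaRT 2 as Atf2. These are likenesses over 4 samples and were given no test.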

How the data were processed

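Total RNA of C2C12 cells was sequenced in 2 si-SCR and 2 si-SMaRT samples, and pull-down RNA in 1 library each. The authors used Trimmomatic for trimming and Bowtie 2 to discard rRNA and tRNA, aligned to GRCm38 with TopHat2, counted on Ensembl 77 genes with htseq-count, scaled libraries by TMM in edgeR, removed genes of low CPM and deposited RPKM values. Peaks carry a p-value from Piranha, run by the authors in bins of 200 bases. Per the study's methods, LacZ peaks were called with the input as covariate, and lnc-SMaRT peaks both with the input and against LacZ. Which of these the lnc-SMaRT list holds is not stated in it. Versions are not given in the sources used here.

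Values were transformed as log2(RPKM + 0.1), and the 11086 genes whose mean RPKM reached 0.5 were fitted in R 4.3.3 with limma 3.58.1, using a mean-variance trend in eBayes. P-values were adjusted by Benjamini-Hochberg and called at 0.05. The pseudocount shrinks the fold changes of low genes. The GC content came from GENCODE M21 exons, for 10566 tested genes. Each sample's trend with it, against the mean of the samples, was fitted by loess of span 0.3 and subtracted. The samples were corrected in turn and the mean was recomputed before each, so part of the trend can remain between samples. Reads were recovered from the steps of the RPKM values for 11640 rows. For 6247 rows the gene model's length gave whole reads, within 0.0001 of a read or a small share of larger counts. For the other rows only the ratio of reads between samples was recovered. The smallest whole numbers in that ratio are given here as lower limits, for genes whose length did not match the gene model. For voom these were multiplied by a factor that brought the length near that of the gene model, where there was a model, so their counts there are approximate. No block was used in the main fit, because the study names none for its own. Samples sharing a replicate number did not deviate together (r -0.36 across 11086 genes). This r also holds trends shared by many genes, such as that with GC content, so it cannot show whether the samples were paired. Peaks were assigned to exons on the same strand, and overlap with a LacZ peak meant at least 1 base. The genes named were the 10 members, of each other list those past the threshold with the 3 highest and 3 lowest fold changes, and the 3 nearest profiles of Fos, Jun and Atf2. The members and lists were chosen with earlier results of these data known. The study names 2 independent populations of cells and does not state whether each of them received both siRNAs. Whether the samples are paired is therefore unclear, and the p-values rest on a spread between 2 samples in each group. Python 3.11.15, numpy 2.4.6, pandas 2.3.3 and matplotlib 3.10.9 were used for the rest. Promoters of Fosl1 and Egr1 and protein sequences were not used here.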

Additional observations from a re-analysis of the deposited data

How the results depend on the processing

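Of 156 fold changes of the 10 genes under other settings, 136 kept their direction and their side of the threshold, 16 kept the direction and newly passed, and 4 turned. The fold changes that turned were those of Jund without si-SMaRT 2 (0.35, the range over omitted samples being -0.98 to 0.35), Atf2 without si-SMaRT 2 (-0.15, range -0.15 to 0.51) and Egr1 without si-SCR 2 (0.17) or si-SMaRT 2 (0.08), range -0.40 to 0.17. None of the 10 genes passed as deposited, 4 with the GC trend removed and 3 with it removed and the replicate block. Leaving out 1 sample gave 0 to 4, and the lone sample is then assumed to vary like the other group. Over all genes, 56 passed as deposited, 37 after quantile normalization, 96 with the replicate block, 112 with voom, 629 with the GC trend removed, 292 with it removed and the replicate block, and 24 to 2908 with 1 sample left out. Of the genes of the 4 pathway lists 1 passed as deposited, 0 without a filter or after quantile normalization, 2 with a pseudocount of 1, a mean RPKM of at least 5, centring on the median or voom, 12 with the GC trend removed, 10 with it removed and the replicate block, and 0 to 36 with 1 sample left out. The cause of these differences was not tested. With the replicate block alone, 0 of the 10 genes passed. Samples with the same number deviated in opposite directions, and a crossed pairing, chosen after seeing the data, gave 2 of the 10 genes, 487 genes and 11 pathway genes. As Atf2 has 0 LacZ peaks, other criteria for overlap could not change its count of 6 peaks, and 4 remained at a p under 0.001. The fewest reads lay behind Fosl1 (at least 20 to 52 a sample), Atf3 (56 to 93) and Fos (65 to 165), and 2 samples per group limit each test.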
